A study of Mus musculus with 14 samples.

Results

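The regions described are the AHCY peaks of mouse chromosome 8 (build mm9) in 2 chromatin immunoprecipitation sequencing (ChIP-seq) libraries, replicates 1 and 2. They were chosen by position: the members are all 3571 chromosome 8 peaks of the replicate 2 list, out of 11733 peaks on all chromosomes. Of these, 218 overlapped a replicate 1 peak by at least 1 bp and are called shared, and 3353 did not and are called unshared. The 247 chromosome 8 peaks of replicate 1, out of 4465, served as the reference. Both libraries came from wild-type E14 mouse embryonic stem cells, a male line from strain 129/Ola, and used a rabbit antibody against AHCY. The cells were grown on gelatin in serum-free N2B27 medium with LIF, 1 µM PD0325901 (a MEK inhibitor) and 3 µM CHIR99021 (a GSK3 inhibitor). The labels do not say whether the replicates were separate cultures. The series holds 14 libraries, and the IgG and RNA-seq libraries are not used here.

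AHCY, S-adenosylhomocysteine hydrolase, breaks S-adenosylhomocysteine down into adenosine and homocysteine. S-adenosylhomocysteine is left over whenever a methyltransferase uses S-adenosylmethionine, and it inhibits methyltransferases, so its removal sustains the methylation of histones, DNA and RNA. A ChIP-seq peak is a stretch of genome where reads from the immunoprecipitated DNA pile up above background, and the experiment asks where on chromatin AHCY is found. Mouse chromosome 8, like the other mouse chromosomes, has its centromere at the end where positions start. Mouse embryonic stem cell lines are known to gain an extra chromosome 8 in culture, but a peak list holds no read counts, and copy number was not measured here.

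Chromosome 8 was singled out because replicate 2 has so many peaks on it, so the numbers that chose it are given as a description, with no test. The peaks of each class come from 1 library and are not replicates, and no p-value is given for any value here. The 2 lists also may not stand on the same footing. The header of replicate 2 speaks of an IgG pool, and that of replicate 1 of a pool, with its control not stated. Their read depths are unknown, and the replicate 2 list stands apart from replicate 1 on chromosomes 6 and 8. Values are therefore given for each replicate alone wherever both have one.

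Replicate 2 listed 27.8 peaks per Mb on chromosome 8 and replicate 1 listed 1.92 per Mb, over a span of 128.4 Mb from the first to the last peak. The replicate 2 list had 14.5 times as many peaks there (exact 95% interval 12.7 to 16.5, counting error only). Its peaks covered 6.92 Mb, or 5.39% of the span, while those of replicate 1 covered 433.5 kb, or 0.338%. On chromosome 6, which had the next largest replicate 2 surplus, the densities were 18.7 and 1.56 peaks per Mb. On the other 17 autosomes together they were 2.57 and 1.89 per Mb. Replicate 1 thus placed its peaks on chromosome 8 at a density within the 0.832 to 3.31 per Mb of those 17 autosomes, and replicate 2 placed them above the 1.62 to 5.71 per Mb found there.

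Chromosome 8 took up 30.4% of the replicate 2 list and 5.53% of the replicate 1 list. Raising the lowest score kept did not remove the difference. The score is the authors' own value for each peak from the peak caller MACS, and it starts at 50 in both lists. With a score of at least 100, 997 of 3159 replicate 2 peaks lay on chromosome 8 (31.6%, exact 95% interval 29.9 to 33.2%). With at least 200 it was 235 of 587 (40.0%, 36.0 to 44.1%), and with at least 300 it was 82 of 171 (47.95%, 40.3 to 55.7%). The replicate 1 share was 40 of 755 (5.30%, 3.81 to 7.14%) with a score of at least 100 and 2 of 34 (5.88%, 0.72 to 19.7%) with at least 200. The replicate 2 share therefore rose among the higher-scoring peaks and the replicate 1 share stayed within its counting error. These score limits were chosen after the data were seen.

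**Figure D1:**
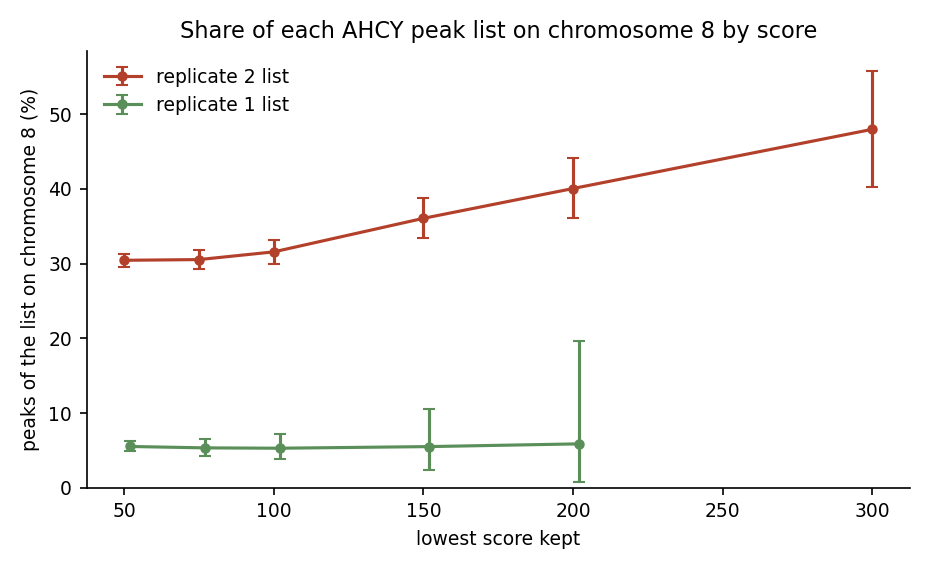
Share of each peak list that lies on chromosome 8 (y axis, %) among peaks with at least the score on the x axis, for replicate 2 (red) and replicate 1 (green, drawn slightly to the right); bars are exact 95% binomial intervals, which cover counting error only. Replicate 2 goes from 30.4% of all its peaks to 47.95% of those scoring at least 300, while replicate 1 lies between 5.30% and 5.88% up to a score of 200.

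Most replicate 1 peaks of chromosome 8 had a replicate 2 partner. The number was 216 of 247 (87.4%, exact 95% interval 82.7 to 91.3%), where 51.4% of the replicate 1 peaks of all chromosomes had one. In the other direction 218 of 3571 replicate 2 peaks were shared (6.10%, 5.34 to 6.94%), against 19.7% over all chromosomes. These shares follow in part from the rule, since many replicate 2 peaks leave more chances to meet one and a larger denominator. Chromosome 6 gave shares close to these, with 83.8% of replicate 1 and 7.17% of replicate 2 peaks, and the other 17 autosomes gave 47.3% and 34.9%. Nearly every shared site was a single peak against a single peak: 4 replicate 1 peaks met more than 1 replicate 2 peak, and 2 replicate 2 peaks met more than 1 replicate 1 peak.

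At the edge of the overlap rule, the shared peak with the shortest overlap lay at chr8:125092612-125097532 and had 50 bp in common with its partner. The next, at chr8:24366266-24367498, had 57 bp in common. The nearest unshared peaks lay at chr8:42324968-42325877, 56 bp from a replicate 1 peak, and at chr8:127579073-127580105, 110 bp from one. The typical overlap was far longer, at a median of 1556 bp, and the distance between the midpoints of partners had a median of 224.5 bp (quartiles 62.1 and 577.1 bp).

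The 31 replicate 1 peaks of chromosome 8 without a partner were low in score and narrow. Their scores ran from 50.99 to 76.9, and 25 of them lay below the median of 65.03 of all replicate 1 peaks there. Their median width was 1054 bp, and that of the 216 with a partner was 1680 bp. The best 3 were at chr8:18916393-18917815, with a score of 76.9, at chr8:46027736-46029376, with 73.2, and at chr8:3676214-3677395, with 70.3. They lay 8.66 kb, 3.31 kb and 1.13 kb from the nearest replicate 2 peak. Of all 31, 15 had a replicate 2 peak within 5 kb, where 9.68% of such peaks did over all chromosomes, and 26 within 20 kb, where 25.6% did. Of the gaps between replicate 2 peaks of chromosome 8, 72.6% are themselves 20 kb or less, so nothing is read from these counts. In 4 score groups made from the 247 peaks, 47 of 62 were shared in the lowest (75.8%, exact 95% interval 63.3 to 85.8%), then 52 of 62 and 55 of 61, and 62 of 62 in the highest (94.2 to 100%). Replicate 1 peaks missing from replicate 2 on this chromosome were thus mostly low in score. This was not particular to chromosome 8. On chromosome 6 replicate 1 peaks without a partner had a median score of 56.25 and width of 990 bp, against 68.7 and 1558 bp with one. On the 17 autosomes the medians were 61.6 and 1491 bp without a partner, against 77.0 and 1710 bp with one.

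Shared replicate 2 peaks scored higher than unshared ones on chromosome 8. Shared peaks had a median score of 166.3 (interquartile range 109.1 to 262.6) and unshared ones 71.2 (58.4 to 99.2). In the whole replicate 2 list the median shared peak of chromosome 8 stood at the top 8.05% by score and the median unshared one at 52.4%. On the 17 autosomes the medians were 92.3 for shared and 67.8 for unshared peaks, and on chromosome 6 they were 150.9 and 68.0. The unshared medians of the 3 sets lay close together, and it was the shared peaks of chromosomes 8 and 6 that scored higher than shared peaks elsewhere.

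The same sites did not score high in replicate 1. The 216 shared replicate 1 peaks of chromosome 8 had a median score of 67.1, below the 77.0 of the 1889 shared ones on the 17 autosomes, where the medians of single chromosomes ran from 72.5 to 84.4. On chromosome 6 the median was 68.7. Shared peaks of chromosomes 8 and 6 include more low-scoring replicate 1 peaks, since most replicate 1 peaks there were shared. The replicate 2 partners of the chromosome 8 peaks had a median of 173.3, and those on the 17 autosomes 93.3. The replicate 2 partner scored higher in 201 of 216 pairs on chromosome 8 (93.1%), where the share over all chromosomes was 68.9%. The median log2 ratio of the replicate 2 score to the replicate 1 score was 1.16 (interquartile range 0.63 to 1.75). It was 1.02 on chromosome 6, and the medians of the 17 autosomes lay between 0.10 on chromosome 16 and 0.44 on chromosome 14. Because the lists may differ in depth and control, a ratio on 1 chromosome has no meaning by itself and serves only to set chromosomes side by side. The order of sites was kept only loosely: across the 216 pairs Spearman's rho of the scores was 0.27, as a description over sites of 1 pair of libraries.

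**Figure D2:**
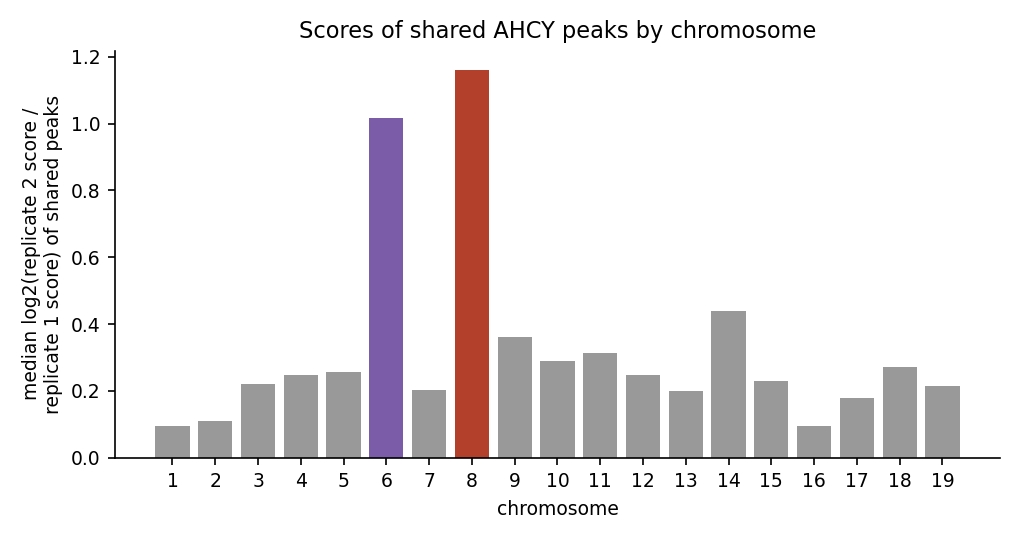
Median log2 ratio of the replicate 2 score to the replicate 1 score over shared peaks (y axis) for each of the 19 autosomes (x axis), with chromosome 8 in red and chromosome 6 in purple. Chromosome 8 stands at 1.16 and chromosome 6 at 1.02, and the other bars lie between 0.10 and 0.44.

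Width moved the same way. Over all peaks of chromosome 8 the median width was 1649 bp in replicate 2 (interquartile range 1160 to 2358 bp) and 1643 bp in replicate 1 (1144 to 2185.5 bp), so the medians lay close together. At shared sites they lay further apart: the replicate 2 peak was the wider in 171 of 216 pairs (79.2%, against 45.0% over all chromosomes), with a median of 2209 bp against 1680 bp. In 115 pairs (53.2%, against 20% over all chromosomes, 459 of 2296) it enclosed the replicate 1 peak entirely. On chromosome 6 it was wider in 75.4% of 191 pairs and enclosed its partner in 40.8%. On the 17 autosomes the replicate 2 peak was wider in 38.0% of 1889 pairs and enclosed its partner in 14.1%. Within replicate 2, shared peaks of chromosome 8 had a median width of 2204.5 bp (1585 to 3424.5 bp) and unshared ones 1618 bp (1146 to 2299 bp). Wider peaks meet others more easily, so this difference is partly built into the split.

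Broad peaks of at least 3 kb were frequent among the replicate 2 peaks of chromosome 8. There were 463 of 3571 (12.97%), where 8.42% of all replicate 2 peaks, chromosome 8 included, were that wide. The share was 8.38% on chromosome 6 and 5.43% on the other 17 autosomes. In replicate 1 there were 20 of 247 (8.10%), where the share over all chromosomes was 8.04%. Of the shared replicate 2 peaks 68 of 218 were broad (31.2%), and of the unshared ones 395 of 3353 (11.8%). The widest shared peak measured 11043 bp, at chr8:123091923-123102965, around a replicate 1 peak of 2408 bp. The next were at chr8:73285630-73296362, with 10733 bp, and chr8:72403237-72413415, with 10179 bp. The widest unshared peaks lay in the same stretch as the latter pair, at chr8:73897988-73908178 (10191 bp), chr8:73413904-73423538 (9635 bp) and chr8:73385154-73394659 (9506 bp). These 3 lay 11.8, 8.57 and 8.80 kb from the nearest replicate 1 peak.

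Score and width were tied within replicate 2 (Spearman's rho 0.63 over the 3571 peaks, a description). In 4 score groups of 892 or 893 peaks made within chromosome 8, the median width rose from 1162 bp in the lowest group through 1416 and 1783.5 bp to 2682 bp in the highest. Broad peaks made up 1.79% of the lowest group and 39.3% of the highest. Within the highest group, the median width was 2396 bp over the 171 shared peaks and 2722 bp over the unshared ones, although shared peaks scored higher (200.7 and 143.9). In the other groups, from the lowest up, the medians were 1250 bp for 7 shared peaks and 1161 bp for unshared ones, 1123.5 bp for 16 and 1424 bp, and 2027 bp for 24 and 1778.5 bp. Shared peaks were thus wider over the whole chromosome, but within score groups the direction varied.

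Most shared replicate 2 peaks of chromosome 8 belonged to the highest score group. The shared part was 7 of 893 in the lowest group (0.784%, exact 95% interval 0.316 to 1.61%), 16 of 893 (1.79%) and 24 of 892 (2.69%) in the middle groups and 171 of 893 in the highest (19.1%, 16.6 to 21.9%). Chromosome 6 had a like course from 1.32% to 21.5%. On the 17 autosomes the groups rose more evenly, through 18.3, 26.6, 39.9 and 55.0%. Of the 31 chromosome 8 peaks with a score of at least 400, 20 were shared (64.5%, 45.4 to 80.8%), and of the 82 with at least 300, 41 were (50.0%, 38.7 to 61.3%). On the 17 autosomes 21 of 34 peaks with at least 300 were shared (61.8%), and 1 of 3 with at least 400. With a score of at least 200 the share was 36.6% on chromosome 8 (86 of 235, 30.4 to 43.1%) and 67.3% on the 17 autosomes (134 of 199). The autosomal peaks at the 2 higher limits are too few to say whether the shares come together there.

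**Figure D3:**
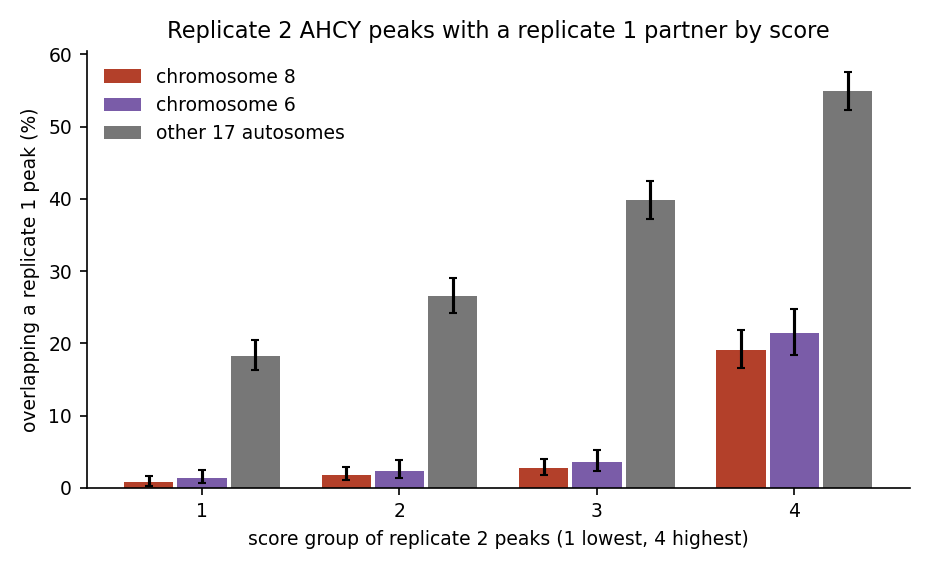
Share of replicate 2 peaks that overlap a replicate 1 peak (y axis, %) in 4 score groups of equal size made within chromosome 8 (red), chromosome 6 (purple) and the other 17 autosomes (grey); bars are exact 95% binomial intervals. On chromosome 8 the lower groups lie at 0.784 to 2.69% and the highest at 19.1%, and on the 17 autosomes the groups climb from 18.3 to 55.0%.

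The partners of the 5 strongest shared peaks of chromosome 8 ranked from 530 to 2316 among the 4465 peaks of replicate 1. The best lay at chr8:123056479-123063972, with a score of 681.1 (rank 3 of the whole replicate 2 list), and its replicate 1 partner scored 70.9. At chr8:72895641-72901754 the scores were 605.8 in replicate 2 and 66.3 in replicate 1. At chr8:74842449-74845822 they were 603.5 and 81.4. The fourth, at chr8:129116019-129120219, had 595.8 and 110.55, and the fifth, at chr8:123605257-123611424, had 584.8 and 106.7. Each of these 5 peaks enclosed its replicate 1 partner entirely.

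Of the strongest unshared peaks, the best came near the best shared one in score and the next 4 lay below the 5 best shared ones. The best, at chr8:86422355-86426603, had a score of 656.4 (rank 4 of the list) and lay 21.1 kb from the nearest replicate 1 peak. Next came chr8:125069422-125076590 with 505.9 at a distance of 3.33 kb, chr8:8658245-8662336 with 481.5, chr8:87319024-87324986 with 458.55 at 9.24 kb, and chr8:94879285-94882400 with 450.7 at 2.96 kb. The peak at chr8:8658245-8662336 was the exception in position, since the nearest replicate 1 peak was 2345 kb away, in a 5 Mb window without any replicate 1 peak. The other 4 lay between 2.96 and 21.1 kb from a replicate 1 peak.

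Along the chromosome the peaks were unevenly spread, and replicate 2 followed the pattern of replicate 1 at a higher level. In windows of 5 Mb counted from position 1, the numbers of replicate 1 peaks and of unshared replicate 2 peaks had a Spearman's rho of 0.88 over 27 windows. This is a description: the windows share their libraries, their sequence content and the local gene density. On chromosome 6 the same measure was 0.91 over 30 windows. The 5 windows richest in replicate 2 peaks held 1733 of them (48.5%), 116 of the 247 replicate 1 peaks (47.0%) and 104 of the 218 shared ones (47.7%). The distal part from 65 Mb on held 2594 replicate 2 peaks (72.6%) and 175 replicate 1 peaks (70.9%), and the part before it 977 and 72. The ratio of replicate 2 to replicate 1 was 14.8 in the distal and 13.6 in the proximal part, so the surplus was of like size on both sides of this boundary, which was set after the data were seen.

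Single windows still differed. The fullest was 120 to 125 Mb, with 489 replicate 2 peaks and 14 replicate 1 peaks, a ratio of 34.9 (exact 95% interval 20.6 to 64.4). The window with most replicate 1 peaks, 70 to 75 Mb, had 33 of them and 269 of replicate 2, a ratio of 8.15 (5.67 to 12.1). Both windows were picked by counts that enter the ratio. They have the highest and the lowest ratio of the 10 windows with at least 10 replicate 1 peaks. Neighbouring peaks are also not independent, so the intervals are too narrow, and nothing is read from comparing them. Over the 10 windows with at least 10 replicate 1 peaks the ratio had a median of 11.4. Among windows with few replicate 1 peaks, 115 to 120 Mb stood out with 122 and 2. The emptiest window was 100 to 105 Mb, with 2 replicate 2 peaks and 0 replicate 1 peaks. Another 3 windows had no replicate 1 peak, and held 32 (5 to 10 Mb), 6 (50 to 55 Mb) and 13 (from 130 Mb) of replicate 2.

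**Figure D4:**
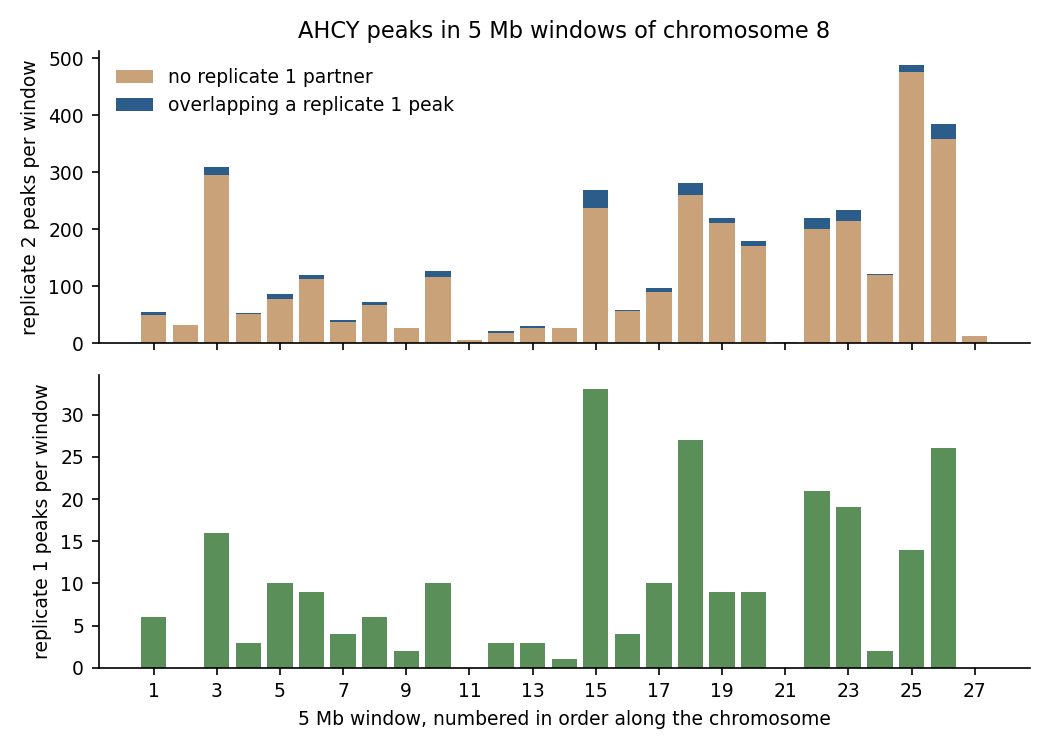
Number of AHCY peaks (y axes) in 27 consecutive windows of 5 Mb along chromosome 8 (x axis, numbered from the centromere), with replicate 2 above, split into unshared (tan) and shared (blue) peaks, and replicate 1 below, on axes of different scale. Both panels rise and fall in similar windows, with 489 replicate 2 peaks in window 25 and 33 replicate 1 peaks in window 15 as the highest bars.

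Windows with more replicate 2 peaks also had wider ones, and in large windows higher-scoring ones. Spearman's rho over the 27 windows was 0.82 between the number of replicate 2 peaks and their median width, and 0.69 between the number and their median score. In windows of 1 Mb these were 0.78 and 0.28, and in windows of 10 Mb 0.80 and 0.78, so the relation with score was weak at the finer scale. Median widths ran from 825 bp at 50 to 55 Mb, where there were 6 peaks, to 2066 bp at 70 to 75 Mb. Median scores ran from 59.3 at the distal end to 83.6 at 70 to 75 Mb. On chromosome 6 rho was 0.59 for width and -0.01 for score over 30 windows.

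Replicate 2 peaks of chromosome 8 were closely spaced. The median gap from the end of a peak to the start of the next was 8.04 kb (interquartile range 2.61 to 22.4 kb) over 3570 gaps, and in replicate 1 it was 125.7 kb (40.3 to 441.0 kb) over 246. Of the replicate 2 gaps 2593 were 20 kb or less (72.6%), against 43.4% over all chromosomes, and of the replicate 1 gaps 42 were (17.1%), against 11.5%. The median replicate 2 gap was 14.3 kb on chromosome 6 and 122.1 kb on the other 17 autosomes, where it ranged from 46.6 kb on chromosome 11 to 248.4 kb on chromosome 16. Replicate 1 gaps on chromosome 8 lay within the range of the 17 autosomes, 92.2 to 400.1 kb.

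**Figure D5:**
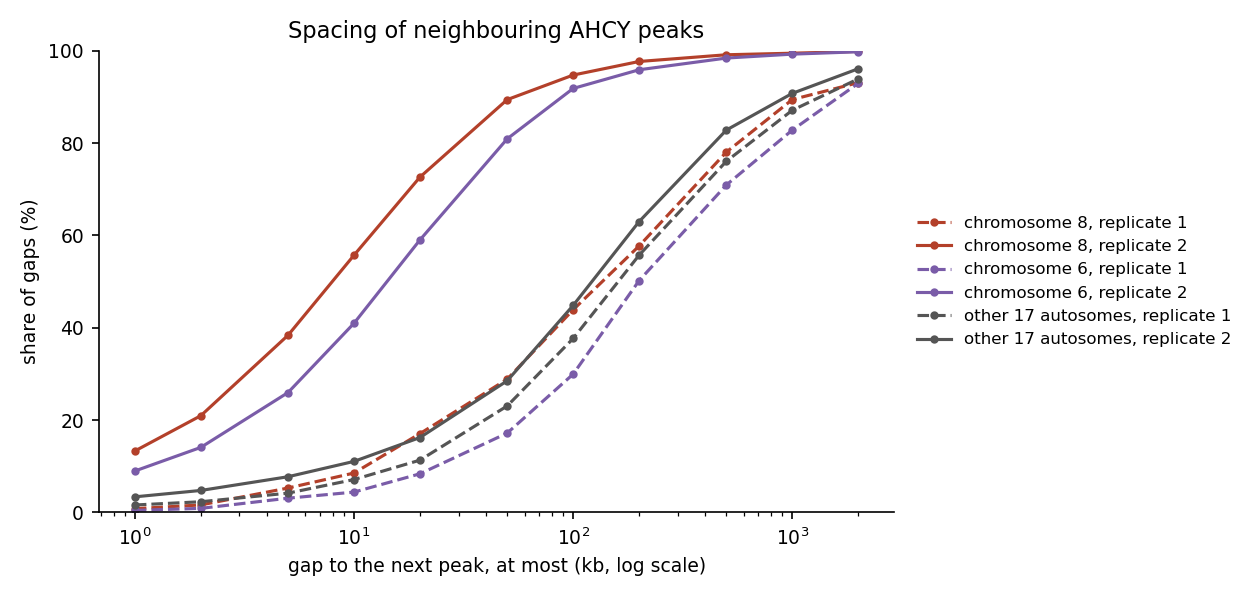
Share of gaps between neighbouring AHCY peaks (y axis, %) that are no longer than the distance on the x axis (kb, log scale), for chromosome 8 (red), chromosome 6 (purple) and the other 17 autosomes (grey), with replicate 1 dashed and replicate 2 solid. At 20 kb chromosome 8 reaches 72.6% in replicate 2 and 17.1% in replicate 1, near the 16.2% of the 17 autosomes in replicate 2.

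Close spacing gathered the replicate 2 peaks into runs, in which each gap is 20 kb or less. The 3571 peaks formed 978 runs, of which 503 were single peaks. Runs of at least 10 peaks numbered 70 and held 1640 peaks (45.9%) in a total of 12.1 Mb. On chromosome 6 there were 41 such runs with 24.1% of its peaks, and on the 17 autosomes 7 with 3.33%. Replicate 1 had no run longer than 4 peaks on chromosome 8. Of the 70 long runs 42 (60.0%) met a replicate 1 peak, where 63.6% of such runs did over all chromosomes, 118 runs that include these 70. On chromosome 6 it was 28 of 41 (68.3%) and on the 17 autosomes 5 of 7 (71.4%). Of the 405 chromosome 8 runs of 2 to 9 peaks 71 (17.5%) met a replicate 1 peak, where 32.0% did over all chromosomes. Of the single peaks 35 (6.96%) did, where 30.8% did over all chromosomes. Longer runs span more sequence and so meet more peaks by their length alone, and 28 long runs held no replicate 1 peak at all.

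The longest run, chr8:122585671-123360819, had 123 replicate 2 peaks in 775.1 kb with a median gap of 1.85 kb, and peaks covered 44.1% of it. Replicate 1 had 3 peaks there, with scores of 60.3 to 70.9. The run holds both the highest-scoring and the widest shared peak of the chromosome. The next, chr8:72703947-73460916, had 106 replicate 2 peaks in 757.0 kb, of which 15 were shared, and 15 replicate 1 peaks with scores of 50.2 to 151.4. The third, chr8:87062425-87619672, had 85 in 557.2 kb, of which 9 were shared, and 10 replicate 1 peaks with scores up to 233.0, the highest of replicate 1 on this chromosome. The 3 runs were thus alike in replicate 2 density and differed in how many replicate 1 peaks they held. In all 3 the highest replicate 2 score belonged to a shared peak.

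Most intervals between replicate 1 peaks held replicate 2 peaks. Of the 246 intervals between neighbouring replicate 1 peaks, 220 (89.4%) had at least 1 replicate 2 peak wholly inside, with a median of 7 (interquartile range 2.25 to 17.75). Longer intervals held more of them (Spearman's rho 0.80, a description). The share was not computed for other chromosomes, and a high share follows in part from the large number of replicate 2 peaks, so nothing is read from it. The fullest interval, chr8:122158340-122940086, had 113 in 0.782 Mb. The longest stretches free of replicate 2 peaks were free of replicate 1 peaks as well. They were chr8:102188278-106014605 (3.83 Mb), chr8:4677793-8236899 (3.56 Mb), chr8:20020614-22916729 (2.90 Mb), chr8:52144808-54948512 (2.80 Mb) and chr8:56040722-58232200 (2.19 Mb). Only the 31 replicate 1 peaks without a partner could have lain in such stretches. Of those, 28 had a replicate 2 peak within 100 kb, so nothing is read from the absence of replicate 1 peaks there.

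Most unshared replicate 2 peaks lay more than 20 kb from a replicate 1 peak. The distance from an unshared peak to the nearest replicate 1 peak had a median of 94.3 kb (interquartile range 31.6 to 217.4 kb). Within 20 kb lay 583 of 3353 (17.4%), where 16.3% did over all chromosomes. On the 17 autosomes the median was 91.2 kb and the share 17.3%. No value for evenly placed peaks was computed, so whether unshared peaks gather around replicate 1 sites was not tested. Those nearer to replicate 1 peaks scored somewhat higher on chromosome 8, with a median of 79.0 within 5 kb (166 peaks), 78.15 from 5 to 20 kb (417), 73.5 from 20 to 100 kb (1152) and 67.4 beyond (1618). The interquartile ranges overlapped widely, at 62.8 to 115.2 for the nearest and 57.3 to 90.8 for the farthest. On chromosome 6 the medians fell as well, from 76.6 through 70.7 and 69.5 to 66.3. On the 17 autosomes the medians of these groups lay between 66.8 and 68.8.

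Shared peaks had the highest score of their neighbourhood more often than unshared ones did. Shared peaks also scored higher as a class, so this partly restates that difference. Within 50 kb on either side, 207 of the 218 shared peaks of chromosome 8 had at least 1 other replicate 2 peak, and 92 of these (44.4%, exact 95% interval 37.6 to 51.5%) had the highest score among them. Of 3220 unshared peaks with a neighbour, 489 did (15.2%, 13.96 to 16.5%). Both classes had a median of 7 neighbours. On chromosome 6 the shares were 52.8% and 19.1%, with a median of 4 neighbours. On the 17 autosomes they lay closer together, at 53.6% of 741 shared and 33.6% of 1632 unshared peaks with a neighbour. Over all peaks of each class there, with or without a neighbour, the median was 0 neighbours. A peak with fewer neighbours is more easily the highest, so these shares cannot be compared directly between chromosomes. Most shared peaks of chromosome 8, 115 of 207, were therefore not the highest of their own neighbourhood. This comparison was chosen after the data were seen.

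Taking only regions found in both replicates, chromosome 8 held 214, which is 1.82 times the density of the other 18 autosomes together (exact 95% interval 1.58 to 2.10). A replicate 1 peak enters this set only by meeting a replicate 2 peak, as 87.4% did on chromosome 8 and 47.3% on the 17 autosomes. The replicate 2 surplus that chose the chromosome therefore enters this value too. Replicate 2 alone gave 7.70 times and replicate 1 alone 1.03 times (0.902 to 1.17), so 1 library decides how dense the chromosome appears. No sequence or gene name is given for these regions, because no genome of the build mm9 was at hand.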

How the data were processed

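The deposited lists, 1 for each library, hold the position, name and score of every peak. The authors called them with MACS, per the file headers and peak names; the header of replicate 1 speaks of a pool, and that of replicate 2 of an IgG pool. For the MACS version, its limit, the control of replicate 1 and the read depth, nothing is stated in the sources used here. The submitters' processing notes name the build mm9, Bowtie and TopHat. The deposited score has a floor of 50, and what it measures is not stated. Starts were changed to count from 1. On chromosome 8, 33 replicate 2 and 2 replicate 1 peaks lie beyond the last gene of GRCm38, the assembly of the gene table at hand, so no genes were assigned and no coordinates converted.

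Overlap, gaps and runs were computed with Python 3.11.15, numpy 2.4.6, pandas 2.3.3 and scipy 1.17.1, and plots with matplotlib 3.10.9; the code was tested on simulated data. A chromosome's span is the stretch between its outermost peaks in both lists. Shares carry exact 95% intervals (Clopper-Pearson), for counting error only. Regions named are the 5 best and 3 widest shared and unshared peaks, the 3 best replicate 1 peaks without partner, the 5 longest gaps, the 3 longest runs, the fullest and emptiest windows and the 2 cases on each side of the overlap rule; others were named after their values were seen. The members and rules were chosen with earlier results of these data known. Alternatives were other overlap rules, score limits, lists of equal length, joined peaks, other windows and each replicate alone.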

Additional observations from a re-analysis of the deposited data

How the results depend on the processing

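Both shares of chromosome 8 peaks with a partner stayed within their 95% intervals under every overlap rule tried (50% of the shorter peak, within 500 bp), and with the better-scoring 50% of each list. The median width of shared peaks exceeded that of unshared ones by 586.5 bp with 1 bp of overlap, and by 586.5 and 539.5 bp under these rules. The median score did so by 95.1 with 1 bp of overlap, and by 102.1 and 90.7 under these rules. The ratio of replicate 2 to replicate 1 peaks was 5.53 with lists of equal length, 12.6 with peaks within 1 kb joined, and 18.9, 24.9 and 56.5 with scores of at least 75, 100 and 150, the last over 8 replicate 1 peaks; these score limits were added after the data were seen. The density relative to the other autosomes was 2.50 with lists of equal length, 7.70 without replicate 1 and 1.03 without replicate 2. The median gap was 13.3 kb with the better-scoring 50% and 10.4 kb with joined peaks. The median distance of unshared peaks to replicate 1 was 167.9 kb with the better-scoring 50%, where fewer replicate 1 peaks remain. Correlations over windows were 0.79 with 1 Mb and 0.86 with 10 Mb windows. No paired analysis was possible because the 2 libraries belong to 1 group. The lists hold no read counts, so what depth limits cannot be given.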
